A study of Homo sapiens with 5 samples.

Results

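Internal alternative promoters are transcription start sites (TSSs) that lie inside a gene, downstream of the point where its annotated gene record begins. They were taken here from the GENCODE v44lift37 annotation of the genome build hg19 (GRCh37) as TSSs of autosomal protein-coding genes that lay over 5 kb downstream of where the gene record begins and over 2 kb from a TSS of any other gene. A window of 1 kb on either side was drawn around each TSS, and windows of a gene that overlapped were merged. The start of the gene record is called its 5′ end below and was scored in a window of the same size. This gave 29347 windows holding 51283 distinct TSSs in 10628 of 19229 autosomal protein-coding genes. The median window lay 43.2 kb from the 5′ end of its gene, 3970 genes had a single window and the largest number in a gene was 25. The samples were SKMEL-147 cells, an established human melanoma line, immunoprecipitated with an antibody against PHF8 in 3 replicates named A, B1 and B2. No treatment is given in the labels for these samples, the 2 input libraries of the series are not analysed here on their own, and no comparison between conditions is possible. Nothing states that the replicates came from separate cultures, so their spread may be technical, and with 2 inputs, A and B, replicates B1 and B2 may share a control and not be independent of each other. The lists held 21506, 20882 and 20120 peaks in A, B1 and B2, and the median fold enrichment of a peak was 18.9 in A and 11.8 in each of B1 and B2, so that fold enrichment was compared within a replicate or as a percentile of its own list. Read totals are not given in the sources used here, and the precision at each peak is set by the number of fragments at its summit, which was recovered here under an assumed formula for the deposited values. A window was called bound when a peak of all 3 replicates overlapped it.

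Many genes use several promoters, which changes the first exon, often the first codon and sometimes the tissue in which the gene is read. An internal promoter is easily overlooked when each gene is reduced to its 5′ end. PHF8 is a histone demethylase of the JmjC family whose PHD finger binds trimethylated lysine 4 of histone H3, a mark of active promoters, and which removes methyl groups from other histone lysines. Promoters rich in CpG dinucleotides are commonly kept free of DNA methylation and carry this mark in many cell types. Among defining genes of the melanocyte lineage, 5 of 10 had a bound 5′ end, namely EDNRB, MITF, PAX3, PMEL and SOX10, beside 54.8% of the 5′ ends of all autosomal protein-coding genes. The 5′ ends of all 3 keratinocyte, 2 leukocyte and 2 endothelial marker genes were not bound. A peak at a promoter is not a measure of its transcription.

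The sequences below show what bound and unbound internal promoters look like. Each is the 150 bases just upstream of the most upstream TSS of a window, read from hg19 on the strand of the gene, outside annotated exons, in lower case with CpG dinucleotides in capitals. NDUFAF1 and AGO1 are shown as the strongest windows of genes without a peak at the 5′ end, RUNX1 and GNAS as genes known for alternative promoters, TGIF1 as a gene of the TGF-β pathway, and MITF as a window without a peak.
NDUFAF1, chr15:41694731-41694880, minus strand: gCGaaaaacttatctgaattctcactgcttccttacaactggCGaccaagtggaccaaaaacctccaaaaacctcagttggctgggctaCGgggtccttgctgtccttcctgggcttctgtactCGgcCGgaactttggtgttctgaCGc
AGO1, chr1:36348660-36348809, plus strand: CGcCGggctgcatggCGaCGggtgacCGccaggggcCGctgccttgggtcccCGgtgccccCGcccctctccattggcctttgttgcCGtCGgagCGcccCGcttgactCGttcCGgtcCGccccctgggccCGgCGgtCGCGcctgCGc
RUNX1, chr21:36262088-36262237, minus strand: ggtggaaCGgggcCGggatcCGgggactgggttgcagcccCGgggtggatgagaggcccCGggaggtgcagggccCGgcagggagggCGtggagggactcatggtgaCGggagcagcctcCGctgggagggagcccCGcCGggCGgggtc
GNAS, chr20:57466207-57466356, plus strand: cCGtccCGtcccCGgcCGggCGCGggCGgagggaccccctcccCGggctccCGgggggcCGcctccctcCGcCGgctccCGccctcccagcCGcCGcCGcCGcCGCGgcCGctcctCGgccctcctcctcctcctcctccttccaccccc
TGIF1, chr18:3447457-3447606, plus strand: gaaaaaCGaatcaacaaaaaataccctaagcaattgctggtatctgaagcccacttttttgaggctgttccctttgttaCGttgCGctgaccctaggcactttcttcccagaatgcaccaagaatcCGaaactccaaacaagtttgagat
MITF, chr3:69985588-69985737, plus strand: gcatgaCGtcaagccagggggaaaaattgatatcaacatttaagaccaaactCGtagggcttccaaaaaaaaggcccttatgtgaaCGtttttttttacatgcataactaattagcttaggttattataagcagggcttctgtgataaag
The GNAS stretch held 21 CpG dinucleotides, that of AGO1 20, that of RUNX1 12, that of NDUFAF1 6, that of TGIF1 4 and that of MITF 3. The stretch before the most upstream TSS does not stand for a whole window: that of TGIF1 merges 14 TSSs, and at least 1 of them lies in CpG-rich sequence by the definition given further on.

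PHF8 was bound at a small fraction of the windows around annotated internal starts and at most 5′ ends of the same genes. Of the 29347 windows, 1082 were bound, which is 3.69% (95% Wilson interval 3.48 to 3.91, for counting error). The share depended on which transcripts counted as starts, with 8.79% for protein_coding transcripts, 17.2% for basic transcripts and 10.3% of member TSSs scored singly. Replicates A, B1 and B2 had a peak in 4.25, 4.03 and 3.87% of the windows, with a mean of 4.05% ± 0.186 (SD, n = 3). A further 143 windows had a peak in 1 replicate and 89 in 2, and 28033 had none. The 5′ ends of the same 10628 genes had a peak in 65.1%, 63.9% and 63.4%, and 6668 of them (62.7%, 61.8 to 63.7) were bound in all replicates, beside 54.8% of the 5′ ends of all autosomal protein-coding genes. The 2 shares lay far apart in each replicate, with a difference of internal windows minus 5′ ends of -60.1 percentage points ± 0.679 (SD, n = 3; two-sided exact sign-flip permutation test over replicates, p = 0.25, the smallest p that 3 replicates allow). The limit of 2 kb from other genes was not set for 5′ ends. Of the 6097 5′ ends that met it 50.6% were bound, and in their genes the difference was -48.2 points ± 0.863. With basic transcripts the difference was -31.3 points ± 0.349. As a background level, windows placed 5 kb further along these genes and more than 2 kb from any TSS were bound in 15 of 18661 cases, or 0.0804%.

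The type of transcript separated the internal windows. A window was called canonical when it held the start of the transcript that Ensembl chose to represent the gene or that is its MANE Select transcript, other coding when another transcript of the class protein_coding started there, and non-coding only when none did, as with retained-intron or processed transcripts. The last class rests on the transcript type alone, and a coding sequence annotated on a transcript of another type was not counted. Of 1512 canonical windows, 696 were bound (46.0%, 43.5 to 48.6). Of 9542 other coding windows, 290 were bound (3.04%, 2.71 to 3.403). Of 18293 windows without a protein_coding transcript, the class non-coding only, 96 were bound (0.525%, 0.430 to 0.640). All 3 shares stood above the 0.0804% of intragenic windows without a start, and their intervals did not overlap. Canonical windows exceeded all the others by 46.0 percentage points ± 0.899 (SD, n = 3; exact sign-flip permutation test, p = 0.25), with 46.8, 46.2 and 45.0 in A, B1 and B2. Canonical windows thus made up 696 of the 1082 bound windows.

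**Figure D1:**
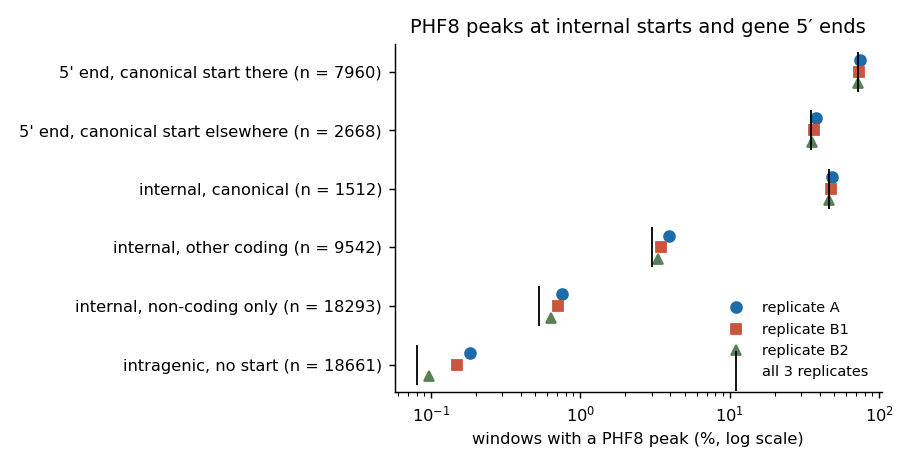
Percent of windows with a PHF8 peak (horizontal axis, log scale) for gene 5′ ends, internal windows by class and intragenic windows without a start. Points are the 3 replicates and the upright stroke is the share with a peak in all 3; the replicates lie close together in each class, and the classes run from 72.1% at 5′ ends with the canonical start down to 0.0804% without a start.

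Gene 5′ ends were less often bound where the canonical transcript starts elsewhere. Of 5′ ends that held the canonical start, 72.1% were bound, against 34.8% of those that did not. In the 1512 genes whose canonical start was an internal window, the 5′ end was bound in 455 (30.1%, 27.8 to 32.5). By the canonical window and the 5′ end alone, 430 of these genes were bound only at the canonical window and 266 at both places. A further 189 were bound only at the 5′ end and 627 at neither. Other internal windows were left out of these counts, so a gene bound at one of them, such as RUNX1, can stand among the 627. A canonical internal window was bound in 58.5% (53.9 to 62.9) of cases where the 5′ end was bound and in 40.7% (37.8 to 43.7) where it was not. In the other windows the order was the reverse, with 0.983% and 2.16%.

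CpG content divided the windows as far as the transcript class did. A window was called CpG-island-like when any of its TSSs had, over 250 bp on either side, a GC fraction of 0.5 or more and CpG dinucleotides at 0.6 or more of the number expected from its C and G content. PHF8 was bound at 882 of 1919 such windows (46.0%, 43.7 to 48.2) and at 200 of the other 27428 (0.729%, 0.635 to 0.837). The difference was 46.4 percentage points ± 0.983 (SD, n = 3; exact sign-flip permutation test, p = 0.25). Among canonical windows the shares were 74.3% with the CpG class and 7.79% without it. They were 28.9% and 1.15% among other coding windows, and 12.03% and 0.268% in the class non-coding only. Gene 5′ ends, scored at a single TSS, gave 82.4% and 25.2%. Within the CpG class, canonical internal windows (71.2 to 77.0) had a lower share than 5′ ends with a canonical start. Of these 5′ ends 84.2% were bound (83.3 to 85.1). The limit of 2 kb from other genes was set for internal TSSs only, so the groups were not chosen alike.

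In windows that were not canonical the share bound fell with distance from the 5′ end up to 100 kb. It was 3.12% at 5 to 10 kb, 1.65% at 10 to 20 kb, 1.11% at 20 to 50 kb, 0.865% at 50 to 100 kb and 1.14% beyond 100 kb. Canonical windows had 50.8% at 5 to 10 kb, values between 46.0% and 48.9% up to 100 kb, and 34.5% (28.3 to 41.3) beyond. Windows with more TSSs were bound more often: among canonical windows the share was 23.2% with 1 TSS and 64.7% with 5 or more, and among the others 0.643% and 9.82%. A window with more TSSs is also wider, and the part of width in this was not tested. At the edge of the distance limit, single TSSs 4 to 5 kb from the 5′ end were bound in 18.8% of cases and those 5 to 6 kb away in 17.0%.

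**Figure D2:**
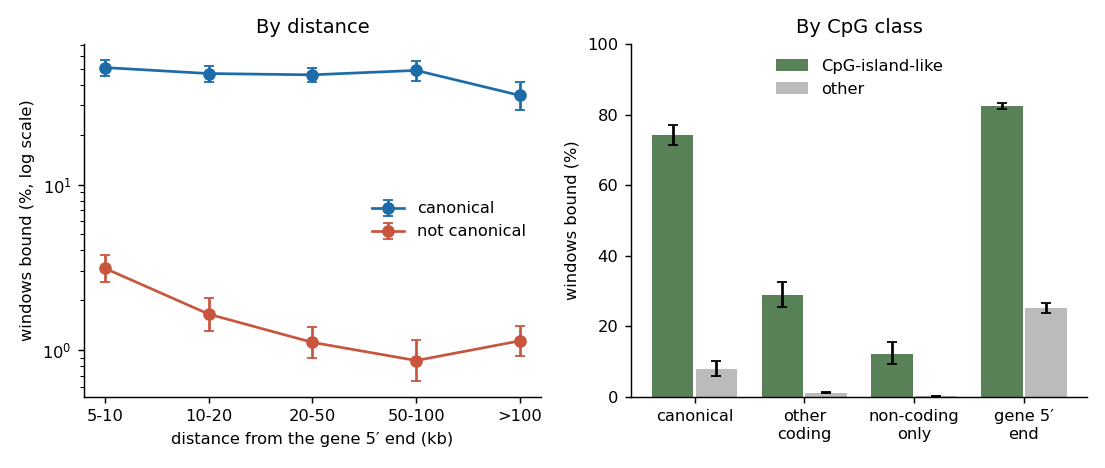
Percent of internal windows bound in all 3 replicates by distance from the gene 5′ end (left, log scale) and by CpG class (right, with gene 5′ ends for comparison). Bars on points and columns are 95% Wilson intervals; canonical windows stay near 46.0 to 50.8% up to 100 kb, and CpG-island-like windows lie above the others in each class.

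The coding consequence of an internal start was read from the annotated start codons. Windows whose coding transcripts used the same first codon as the transcripts at the 5′ end were bound in 429 of 2964 cases (14.5%), and those with another first codon in 360 of 3085 (11.7%). Where no coding transcript began at the 5′ end, 185 of 670 windows were bound (27.6%). Windows without a protein_coding transcript that has an annotated start codon had 108 of 22628 (0.477%). Start codons of other transcript types were not counted. Without the canonical windows the order of the first 2 classes turned, with 4.08% (3.34 to 4.98) for the same first codon and 6.25% (5.39 to 7.24) for another.

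At the level of genes, 1021 of 10628 had a bound internal window, 967 with 1 window, 47 with 2 and 7 with 3. PHF8 was bound both inside and at the 5′ end of 425 genes and only at the 5′ end of 6243, and 3364 were bound at neither. In 596 genes an internal window was bound and the 5′ end was not. No replicate had a peak at the 5′ end in 544 of these, and 1 or 2 replicates had one in 52. A further start that was not a member, nearer to the 5′ end than 5 kb or close to another gene, was bound in 76 of the 596, so that 520 genes were bound at their internal windows alone. A bound internal window was found in 15.1% of the 3960 genes whose 5′ end was not bound and in 6.37% of the 6668 genes whose 5′ end was.

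Bound internal windows had a median fold enrichment of 24.3, 13.6 and 13.0 in A, B1 and B2, with 29.2, 16.8 and 15.7 for canonical windows and 15.9, 9.11 and 8.21 for the others, while bound 5′ ends had 34.1, 19.8 and 18.7. The 10 strongest windows of genes without any peak at the 5′ end stood at mean percentiles of 98.4 to 99.8 in the peak lists. NDUFAF1, which encodes an assembly factor of respiratory complex I, stood first of all members, with its window at chr15:41693640-41695730, 6.87 kb from the 5′ end. Replicates A, B1 and B2 gave it fold enrichments of 76.4, 47.4 and 43.0, from 195, 138 and 130 fragments at the summit. Summits of all replicates fell in an annotated UTR, 81 to 94 bp downstream of the nearest TSS. AGO1, an Argonaute protein of small RNA silencing, came next among these 10 with 66.6, 42.6 and 38.8 from 170, 124 and 117 fragments, at chr1:36347810-36349963, 13.4 kb inside. Both windows were canonical and CpG-island-like.

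C15orf39 had 62.5, 45.9 and 37.3. POMGNT1, a glycosyltransferase acting on O-mannosyl glycans of dystroglycan, had 57.2, 41.4 and 40.0. RAB11A, a GTPase of recycling endosomes, had 56.2, 42.8 and 39.6 at a window 143 kb inside. These windows were canonical and CpG-island-like as well, as were those of TMEM260, CDC42SE2, which encodes a small effector of CDC42, and PTPN2, a tyrosine phosphatase. Over these 6 windows the fold enrichments ran from 56.2 to 62.5 in A, 36.5 to 45.9 in B1 and 34.7 to 40.1 in B2.

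The windows of KANSL3, a subunit of the NSL chromatin complex, and CTNNB1, which encodes β-catenin, belonged to the 10 by rule but not by position. Relative to the nearest member TSS their summits stood at -962, -966 and -940 bp and at -841, -856 and -855 bp, that is upstream and closer to starts that were not members, and the canonical starts of the 2 genes lay 4.48 and 4.76 kb from the 5′ end, just under the distance limit. Over all bound windows such cases were few: the summit of each replicate was nearest to a TSS of the window itself in 1040 of 1082 (96.1%), in 692 of 696 canonical windows and in 348 of 386 others.

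In genes bound at both places, the internal window and the 5′ end could be set side by side in the same replicate. This was possible for 446 windows of 425 genes. The median log2 ratio of internal over 5′ end fold enrichment was -0.15, -0.26 and -0.25 in the 3 replicates, with a mean of -0.22 ± 0.058 (SD, n = 3; exact sign-flip permutation test, p = 0.25). The internal window was lower in all 3 replicates in 211 cases, higher in all 3 in 126 and mixed in 109. Among peaks with a fold enrichment above 10 the mean was -0.03 ± 0.080, with replicate A above 0 (exact p = 0.75). Canonical windows had medians of 0.09, -0.03 and 0.00, a mean of 0.02 ± 0.058 (p = 0.75 by the same exact test), with 93 lower and 98 higher of 266. The 180 windows that were not canonical were lower by a mean log2 ratio of -0.80 ± 0.048 (p = 0.25, exact test), with 118 lower and 28 higher.

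**Figure D3:**
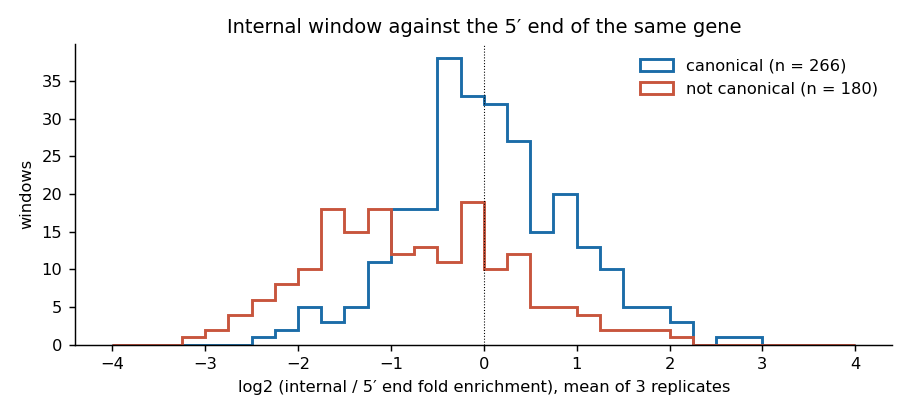
Number of windows (vertical axis) by the log2 ratio of fold enrichment at the internal window over that at the 5′ end of the same gene, averaged over the 3 replicates, for genes bound at both. The 266 canonical windows centre near 0 and the 180 others lie mostly below 0.

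The internal window exceeded the 5′ end most in NAE1, which encodes the regulatory subunit of the NEDD8-activating enzyme. Its window had 52.3, 38.6 and 38.5 in A, B1 and B2 and its 5′ end 5.98, 7.32 and 4.39, a log2 ratio of 2.89 ± 0.42 (SD, n = 3). STK11, the tumour suppressor kinase LKB1, had 40.1, 28.3 and 28.9 inside and 5.65, 3.75 and 5.22 at the 5′ end (2.74 ± 0.24). TMEM62 reached 2.20 ± 0.11 and IDH3A, a subunit of mitochondrial isocitrate dehydrogenase, 2.09 ± 0.54. All of these windows were canonical. MLF2 was among the 5 strongest windows of all, with 70.3, 42.8 and 38.1 inside and 30.4, 23.2 and 21.4 at the 5′ end.

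At the other extreme, the internal window was far weaker than the 5′ end and none was canonical. TSPAN10 had 4.68, 4.40 and 6.52 inside and 64.3, 39.8 and 41.0 at its 5′ end (-3.20 ± 0.57), CLASP2, a protein of growing microtubule ends, had a ratio of -2.96 ± 0.41, and IBA57, a factor of iron-sulfur protein assembly, of -2.79 ± 0.50. TEX2 had -2.62 ± 0.20 and JMJD1C, of the JmjC family like PHF8, -2.59 ± 0.25. The TSPAN10 peaks rested on 11, 12 and 19 fragments, against 160, 130 and 140 at the NAE1 window. These genes were ranked by the ratio itself, so their values are descriptive.

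Summits at internal promoters lay close to a TSS and mostly downstream of it. The mean share of summits downstream was 68.7% ± 1.32 (SD, n = 3), and 74.6% ± 0.678 lay within 200 bp of the nearest TSS of the window. At the 5′ ends of these genes 75.1% ± 0.149 lay downstream and 53.0% ± 0.843 within 200 bp. All these shares count only summits within 1 kb of the start used. In A that kept 1066 of 1082 bound internal windows and 6398 of 6668 bound 5′ ends. The difference in the downstream share was -6.39 percentage points ± 1.2 (SD, n = 3; exact sign-flip permutation test, p = 0.25), and its sign depended on which start was taken. Measured from the most upstream TSS of each internal window, 79.2% ± 0.282 of summits were downstream and 50.9% ± 1.04 lay within 200 bp. In windows with a single TSS these shares were 66.6% ± 1.38 and 55.7% ± 1.52. With 1 start per window, the share within 200 bp was thus near the 53.0% of 5′ ends. With the basic transcripts of GENCODE alone the difference in the downstream share turned to 3.398 points. An internal window can hold several starts and a 5′ end only 1, so the distances to the nearest start are not measured alike.

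Canonical windows had 72.4% ± 1.21 of summits downstream and 83.3% ± 1.23 within 200 bp, and the others 62.0% ± 2.41 and 58.4% ± 0.888. The strongest peak of a bound window had a median width of 578 bp ± 73.7 at internal promoters and 769 bp ± 75.2 at 5′ ends. By annotation, summits fell in introns of the gene in 41.9 to 44.3% of windows over the replicates, in UTRs in 34.5 to 37.2%, in coding exons in 16.8 to 17.5% and in exons of non-coding transcripts in 3.97 to 4.44%. By mean percentile of fold enrichment, the median bound window stood at 57.6, with 66.7 for canonical windows and 39.3 for the others, and the median 5′ end at 74.5. Of the 1082 windows 111 stood in the top 10% by this percentile, 99 of them canonical.

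**Figure D4:**
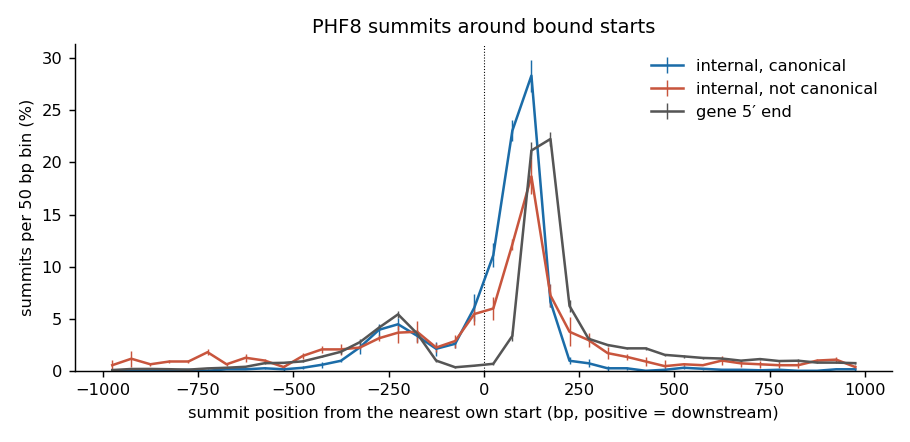
Position of peak summits relative to the nearest TSS of the window or to the gene 5′ end (horizontal axis, bp, positive downstream), as percent of summits per 50 bp bin; lines are means and bars SD over 3 replicates. Canonical and other internal windows and 5′ ends each have a main mode downstream and a smaller one upstream of the start, and the downstream mode of 5′ ends lies farther out.

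Sequence was read over 250 bases before to 50 after the most upstream TSS of each window, on both strands. Bound canonical windows had a median of 22 CpG dinucleotides and the bound others 15, against 5 in canonical windows without a peak and 3 in the others without a peak. Bound 5′ ends had 26, and the 5′ ends of all autosomal protein-coding genes 18. At the TSS nearest to the summit, which can be chosen only where there is a peak, the 2 bound classes had 30 and 19. The GC box (GGGCGG), a site of Sp family factors, was present in 64.4% of bound canonical windows, 52.8% of bound others, 25.8% of canonical windows without a peak and 7.98% of the others without one, with 52.4% over all 5′ ends. In the same order the ETS motif (CCGGAAG) was present in 12.1%, 8.55%, 2.87% and 1.45%, with 11.9% over all 5′ ends. The NRF1 motif (GCATGCGC) was found in 4.74%, 1.30%, 0.914% and 0.546%, with 3.65% over all 5′ ends. Among bound 5′ ends alone the GC box was present in 69.2%, the ETS motif in 17.8% and the NRF1 motif in 5.86%.

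The YY1 motif (ATGGCGGC) was found in 3.45%, 1.55%, 0.914% and 0.330%, with 3.19% over all 5′ ends. The CRE (TGACGTCA), the cAMP response element, was found in 3.45%, 2.07%, 0.522% and 0.249%, with 2.28% over all 5′ ends, and its letters also stand in the MITF stretch printed above, in a window without a peak. The E-box (CACGTG) was found in 8.91%, 6.22%, 4.96% and 4.04%, with 8.20% over all 5′ ends. CCAAT, the one of these motifs whose letters hold no CpG, was found in 35.6%, 29.3%, 37.9% and 33.6%, with 35.5% over all 5′ ends, and was no more frequent in bound than in unbound windows. Among bound 5′ ends alone YY1 was found in 5.07%, the CRE in 3.28%, the E-box in 10.5% and CCAAT in 35.0%. The part of CpG content in the motifs other than CCAAT was not tested.

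Genes known from textbooks for alternative promoters had 13 bound windows of 189 (6.88%), in 12 of the 39 genes with a member, and their 5′ end was bound in 15 of 39. Over all members 3.69% of windows were bound, with a bound window in 9.61% of genes and a bound 5′ end in 62.7%. Of the canonical windows of the textbook genes 7 of 12 were bound and of their others 6 of 177 (3.39%). Over all windows these shares were 46.0% and 1.39%. GNAS, which encodes the stimulatory G protein α subunit and other products from separate promoters, was bound at 1 of 5 windows, that of its canonical start, with 21.2, 8.40 and 14.4 from 58, 36 and 53 fragments. The window 13.5 kb inside, with another first codon, and the 5′ end had no peak in any replicate. CDKN2A encodes the cell cycle inhibitors p16INK4a and, from an upstream start, p14ARF. Its canonical window, 20.4 kb inside, had 31.4, 16.7 and 15.8 from 83, 48 and 47 fragments, while its 5′ end and the window 23.9 kb inside had no peak.

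RUNX1, a transcription factor of blood development, had 9 windows, and its gene record begins far upstream of its usual promoters. The window 1115 kb inside, at chr21:36258480-36263087, was bound with 12.9, 9.73 and 6.15, and that of the canonical start 955 kb inside had a peak of 5.45 in A only. BDNF, a neurotrophin, had 20.5, 8.57 and 15.6 at its canonical window 20.4 kb inside and 3.99, 4.92 and 4.75 at the 5′ end (log2 ratio 1.63 ± 0.78). DNMT1, the maintenance DNA methyltransferase, had 56.4, 39.9 and 34.5 inside and 20.3, 10.9 and 8.87 at the 5′ end. In CREM, a cAMP-responsive transcription factor, the order was the other way, with 9.06, 6.81 and 4.37 inside and 39.5, 23.5 and 20.6 at the 5′ end. The remaining genes bound inside were NR3C1, NRG1, PAX6, RUNX3, TCF4 and TPM3, none of which was bound at the 5′ end. In PAX6, NR3C1 and 1 of the 2 windows of TCF4 the summits were nearer to a start that was not a member in at least 1 replicate.

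**Figure D5:**
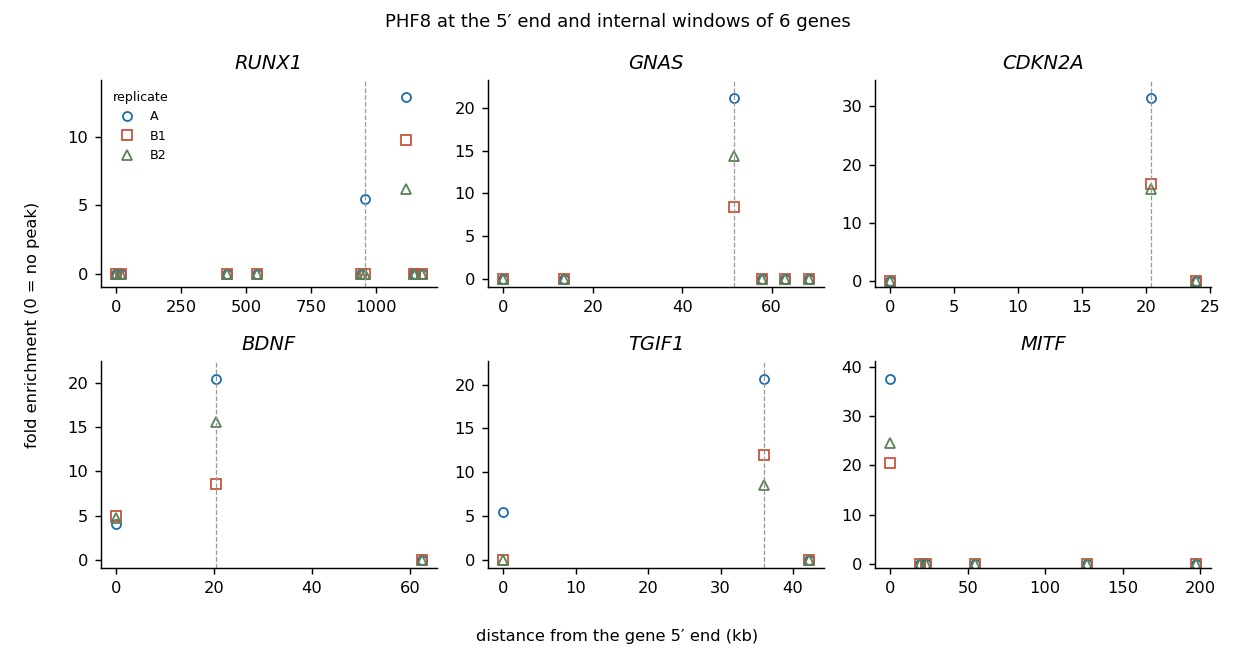
Fold enrichment of the strongest peak (vertical axis, 0 where no peak was listed) at the 5′ end and at each internal window of 6 genes, by distance from the 5′ end in kb; symbols are the 3 replicates and dashed lines mark canonical windows. RUNX1, GNAS, CDKN2A and TGIF1 are bound only inside the gene, BDNF is bound inside and more weakly at its 5′ end, and MITF is bound at the 5′ end only.

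The TGF-β pathway, which the study's title names, had 3 of 100 windows bound, in 2 of 36 genes, beside 3.69% of all windows and 9.61% of all genes with a member. Its 5′ ends were bound in 30 of 36 genes (83.3%), beside 62.7% over all genes with a member. TGIF1, a homeobox corepressor of SMAD signalling, had 20.6, 11.9 and 8.54 at its canonical window 36.0 kb inside, from 52, 34 and 25 fragments, and a peak of 5.45 at the 5′ end in A only. LTBP4, a latent TGF-β binding protein, was bound at 2 windows and not at its 5′ end. The canonical window of TGFBR3, a co-receptor, had a peak in 2 replicates. SMAD3 and SMAD4, the receptor-regulated and the common signal transducers, had 9 and 6 windows and no peak in any of them. Their 5′ ends had none either, but their canonical starts, 1.84 and 1.69 kb further in and so not members, were bound, with 14.0, 9.01 and 11.6 for SMAD3 and 33.4, 24.9 and 25.6 for SMAD4. TPRN, which encodes taperin, had 75.1, 47.5 and 48.7 at a canonical start 3.45 kb inside, a peak in 1 replicate at its 5′ end and none at its 1 member. TGIF1, SMAD3, SMAD4 and TPRN were picked because the 5′ end alone was known to miss their peak. Their unbound 5′ ends are thus no separate result.

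Genes of the melanocyte lineage had 1 bound window of 43 (2.33%, beside 3.69% over all windows), in TFAP2A, a transcription factor of neural crest and epidermis, with 24.2, 9.54 and 13.4 and summits nearer to a start that was not a member. Of the 15 genes of this list with a member, 5 had a bound 5′ end (33.3%, beside 62.7% over all genes with a member). MITF, a transcription factor of the melanocyte lineage, had a bound 5′ end with 37.6, 20.4 and 24.6 in A, B1 and B2. None of its 5 internal windows had a peak in any replicate, among them the window at chr3:69984738-69986980, 197 kb inside, whose 6 TSSs were not CpG-island-like. TYRP1, a melanin synthesis enzyme, had a canonical window without a peak, as did TRPM1, and that of SOX5 had a peak in 1 replicate. KIT, the receptor tyrosine kinase, had 6 windows without a peak.

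Among tropomyosins and cytoskeletal linkers 10 of 201 windows were bound (4.98%, beside 3.69% over all windows), in 7 of 25 genes. Over all genes with a member 9.61% had a bound window. The 5′ end was bound in 17 of the 25 (68%, beside 62.7% over all genes with a member). TPM3, a tropomyosin, had 39.8, 15.8 and 14.9 at a window 10.8 kb inside and no peak at the 5′ end. MACF1 and DST, both spectraplakins that link actin and microtubules, were bound at 2 windows each, MACF1 without a peak at the 5′ end. DST had 6.98, 6.82 and 7.18 at 412 kb and 4.35, 4.77 and 2.85 at 103 kb, below the 25.1, 12.6 and 13.5 of its 5′ end. Synaptic adhesion genes had 2 bound windows of 177 (1.13%, beside the same 3.69%), and their 5′ end was bound in 7 of 32 (21.9%, beside 62.7%). The bound windows lay in NRXN3, a presynaptic neurexin, 1109 kb inside, with 9.01, 5.35 and 9.66, and in NTM, with 5.84, 4.43 and 3.94.

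Genes whose symbols begin like those of the cyclic nucleotide phosphodiesterases had 6 of 102 windows bound (5.88%, beside 3.69% over all windows). Of their canonical windows 5 of 8 were bound and of the others 1 of 94 (1.06%), beside 46.0% and 1.39% over all windows. Their 5′ end was bound in 5 of 23 genes (21.7%, beside 62.7% over all genes with a member). PDE11A, a phosphodiesterase of both cyclic AMP and cyclic GMP, had 31.2, 17.0 and 13.8. The 2 bound windows of PDE4DIP belong to a gene that is not itself a phosphodiesterase.

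Chromatin modifiers, taken by the first letters of gene symbols, had 19 of 372 windows bound (5.11%, beside 3.69% over all windows). Their 5′ end was bound in 71 of 89 genes (79.8%, beside 62.7%). Of their canonical windows 7 of 10 were bound and of the others 12 of 362 (3.31%), beside 46.0% and 1.39% over all windows. PRDM11, a PR domain protein, had 45.7, 24.8 and 36.6 at its canonical window, and KDM4C, a histone demethylase, 26.0, 25.2 and 24.6, both without a peak at the 5′ end. SMARCA2, an ATPase of SWI/SNF remodelling complexes, had 26.5, 14.7 and 12.5 likewise. Zinc finger genes, also taken by symbol, had the largest share of the gene lists described here, with 36 of 428 windows bound (8.41%). Their canonical windows were bound in 29 of 37 cases and their others in 7 of 391 (1.79%). Over all windows these shares were 3.69%, 46.0% of canonical windows and 1.39% of the others. The 5′ end of zinc finger genes was bound in 191 of 247 (77.3%, beside 62.7%). ZNF131 had 61.4, 35.4 and 34.0 inside and 19.3, 14.6 and 13.7 at the 5′ end, and ZNF627 (log2 ratio 0.05 ± 0.13) had 62.7, 34.7 and 31.3 inside and 54.8, 33.8 and 32.9 at the 5′ end. ZNF546 had 53.1, 32.1 and 21.7 with no peak at the 5′ end. The median percentile of bound windows was 58.0 in zinc finger genes, 49.6 in chromatin modifiers, 47.0 in the textbook genes, 37.7 in the cytoskeletal genes, 37.03 in the TGF-β pathway, 26.2 in the phosphodiesterases and 19.1 in synaptic adhesion genes, beside 57.6 over all bound windows.

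Several bound windows in 1 gene were uncommon. The 7 genes with 3 bound windows were CHD9, ERCC1, IQSEC1, NFIC, PLEKHG5, PPFIA3 and SEPTIN9, of which the last 2 are tied with the others and only named. IQSEC1, an exchange factor for ARF GTPases, had 24.1, 14.7 and 16.6 at a window 316 kb inside, 30.0, 20.9 and 18.9 at 288 kb and 7.88, 7.46 and 6.04 at 261 kb, with no peak at its 5′ end. In ERCC1, a DNA repair endonuclease subunit, the canonical window at 54.5 kb had 22.5, 10.4 and 15.9, that at 28.1 kb 24.3, 13.4 and 10.1 and that at 49.6 kb 6.31, 6.19 and 4.64. NFIC, a nuclear factor I protein, had its canonical window at 52.1 kb with 16.8, 8.73 and 11.2 and its weakest at 121 kb with 4.16, 4.50 and 4.64. PLEKHG5 was bound at 3 windows and not at its 5′ end, with 16.0, 10.6 and 8.87 at the first of them, 12.2, 10.2 and 9.20 at the canonical window 28.4 kb inside and 10.1, 9.89 and 6.82 at 34.1 kb. CHD9, a chromatin remodeller, was also bound at its 5′ end, with 19.6, 13.3 and 11.7.

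The farthest bound windows lay in very long gene records. After RUNX1 and NRXN3 came AUTS2, a gene of neural development, 1096 kb inside, with 13.6, 8.18 and 6.57. CAMTA1, a transcription factor gene, had 29.2, 14.3 and 17.7 at 919 kb and 37.01, 23.5 and 19.1 at its 5′ end. NRG1, which encodes neuregulin growth factors, had 12.8, 9.21 and 7.89 at its canonical window 909 kb inside. Of these 5 genes CAMTA1 alone was bound at the 5′ end.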

How the data were processed

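SKMEL-147 chromatin was immunoprecipitated for PHF8 (replicates A, B1 and B2). The authors, per the labels and methods, aligned reads to hg19 (GRCh37) with Bowtie2 and called narrow peaks per replicate with MACS against input, and the submitters' processing notes also name Picard and bcl2fastq. For each peak the authors deposited the fold enrichment at the summit, a linear ratio of ChIP over local background, p-values and q-values as −log10 values, a score that was not used here, and the summit. No listed peak had a q-value above 0.0482 or a fold enrichment below 2.07. Windows had to share 1 bp with a peak, and the strongest peak was kept. Summit fragments were recovered as the whole number that satisfies the deposited fold enrichment and p-value together, to within 0.000234 on the −log10 scale, on the assumption, which no source used here states, that MACS added a pseudocount of 1 to fragments and background and took p from a Poisson distribution. Wilson intervals (95%) cover counting error only. Replicates were compared with a two-sided exact sign-flip permutation test. Scripts were checked on simulated data with Python 3.11.15, pandas 2.3.3, numpy 2.4.6, scipy 1.17.1 and pysam 0.24.0.

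Named were examples from gene lists, the 10 strongest bound windows of genes without a 5′ peak and the 5 strongest of all. Also named were the 5 highest and 5 lowest ratios to the 5′ end, the genes with most bound windows and the 5 farthest windows. SMAD3, SMAD4, TGIF1, TPRN and CBX8 were named because the 5′ end alone was known to miss their peak, and CBX8 had no member. Members and lists were chosen with earlier results of these data known. Some items that these rules select are not reported here.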

Additional observations from a re-analysis of the deposited data

How the results depend on the processing

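The share of internal windows bound was 3.69% and ran from 3.71 to 3.88% when a replicate was left out. It was 2.18% with a fold enrichment above 10, 3.24% with windows of 500 bp on either side, 4.54% with windows of 2 kb on either side, 2.83% beyond 20 kb, 5.25% with no limit on neighbouring genes, 8.79% with protein_coding transcripts, 17.2% with basic transcripts and 3.99% with a peak in at least 2 replicates. The share of their gene 5′ ends was 62.7%. It was 52.7% with a fold enrichment above 10, 60.7% with the summit inside the window, 61.1% with 50% of the peak inside, 60.5% with windows of 500 bp on either side, 64.2% with windows of 2 kb on either side, 50.6% for 5′ ends over 2 kb from other genes, 57.8% with protein_coding transcripts, 47.8% with basic transcripts and 64.0% with a peak in at least 2 replicates. Genes bound only inside numbered 596, with 332 beyond 20 kb, where fewer windows are members, 905 with no limit on neighbouring genes, where more are, and 594 to 599 without a replicate.

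Internal windows had a peak less often than 5′ ends, by -61.3 to -31.3 percentage points, under all 15 alternatives run, and canonical and CpG-island-like windows more often than the others, by 37.8 to 53.1 and 36.4 to 62.7 points. The mean log2 ratio to the 5′ end ran from -0.40 to -0.03 over 17 alternatives, and at -0.03 ± 0.080, with a fold enrichment above 10, replicate A was above 0. The difference in summits downstream of the start turned from -6.39 to 3.398 percentage points with basic transcripts, and was -2.41 with protein_coding transcripts and -14.8 for 5′ ends over 2 kb from other genes, and the cause was not tested. With 3 replicates no exact test could fall below p = 0.25, or 0.50 when a replicate was left out, so the tests set no call. Peaks of 11 fragments at the summit were the weakest named, and a window without a peak is not shown to be unbound at this depth.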

Other observations

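The limit of 2 kb from other genes left out 8016 of 59299 internal TSSs of these genes, or 13.5%. Of the TSSs left out, scored singly in windows of 1 kb on either side, 3374 were bound (42.1%, 95% Wilson interval 41.0 to 43.2). Of the 51283 member TSSs scored the same way, 5294 were bound (10.3%, 10.1 to 10.6). A peak near a TSS left out cannot be told apart from one at the neighbouring gene.

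Among chromosomes the share of internal windows bound was lowest on chromosome 13, with 9 of 512 (1.76%, 0.927 to 3.31), and highest on chromosome 19, with 90 of 1410 (6.38%, 5.22 to 7.78). Over all windows it was 3.69%, and the part of transcript class and CpG content in these extremes was not tested. Of the 3364 genes bound neither inside nor at the 5′ end, 420 had another start bound that was not a member, as SMAD3 and SMAD4 had. Bound windows held more than 1 peak in 36.4% ± 1.14 (SD, n = 3) of cases and 5′ ends in 40.1% ± 2.88.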
